A study of Mus musculus with 2 samples.

Results

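Vascular endothelial cells line every blood vessel, and a small group of genes marks them in nearly all tissues. The 10 genes described here were fixed by name, with earlier results of these data known: Pecam1, Cdh5, Ecscr, Emcn, Cd34, Esam, Egfl7, Sox17, Sox18 and Esm1. They are 10 of the 47644 genes in the deposited table of this mouse eyeball study, and each symbol occurs there once. RNA was sequenced from 1 control library and from 1 library of the oxygen-induced retinopathy (OIR) model, both from eyeballs of C57BL/6 mice. For OIR, pups were exposed to hyperoxia from day 7 for 5 days and then returned to room air, and eyes were collected at day 17. The labels give the control no oxygen treatment and no collection day of its own, name no genetic alteration in either group, and do not say how many eyes or animals were pooled. Each group is 1 library, so nothing below was checked across animals, and no test was run.

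In retinopathy models the immature retinal vessels close in high oxygen, and the retina becomes hypoxic once the animals breathe room air again. Hypoxic cells release VEGF-A, and endothelial cells answer by forming sprouts. The leading cell of a sprout, the tip cell, extends filopodia and switches on genes such as Esm1, while the stalk cells behind it build the tube. Junction and surface proteins such as VE-cadherin and PECAM-1 are carried by tip and stalk cells alike, so their RNA is commonly read as a gauge of endothelial content. In an eyeball sample the endothelium comes from the retina, choroid, iris, ciliary body, conjunctiva and any attached tissue, and more endothelial cells cannot be told apart from more RNA per cell.

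The sequence just upstream of the start site is shown for Esm1, the member with the largest ratio, and for Cd34 and Emcn, which had smaller ones. The windows come from RefSeq promoters on GRCm38.p6, all on the plus strand, and stop before the gene's start. Capitals mark the hypoxia response core GCGTG and the ETS core AGGAAG, searched on both strands, so a match on the minus strand is marked in its reverse complement. The mature 3p arm of miR-126a is added because Egfl7 is its host gene, with its seed, bases 2 to 8, in capitals.
Esm1, chr13:113209409-113209658: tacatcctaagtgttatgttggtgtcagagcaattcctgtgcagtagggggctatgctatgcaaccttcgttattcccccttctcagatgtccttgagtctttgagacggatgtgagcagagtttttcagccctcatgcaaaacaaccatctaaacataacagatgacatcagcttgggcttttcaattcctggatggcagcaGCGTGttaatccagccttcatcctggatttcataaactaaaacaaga
Cd34, chr1:194938571-194938818: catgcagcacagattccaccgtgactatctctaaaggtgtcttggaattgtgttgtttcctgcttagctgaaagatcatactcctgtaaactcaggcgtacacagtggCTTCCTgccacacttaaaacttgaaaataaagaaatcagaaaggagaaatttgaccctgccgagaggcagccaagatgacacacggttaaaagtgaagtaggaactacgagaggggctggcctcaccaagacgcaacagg
Emcn, chr3:137340828-137341066: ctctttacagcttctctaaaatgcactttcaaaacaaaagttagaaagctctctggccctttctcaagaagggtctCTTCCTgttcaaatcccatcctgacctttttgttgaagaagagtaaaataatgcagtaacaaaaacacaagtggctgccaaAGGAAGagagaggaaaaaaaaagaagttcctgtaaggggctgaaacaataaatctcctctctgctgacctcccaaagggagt
mmu-miR-126a-3p, chr2:26591402-26591423: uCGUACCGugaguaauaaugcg
The Esm1 stretch holds 1 GCGTG and no AGGAAG, and the Cd34 and Emcn stretches hold 1 and 2 AGGAAG and no GCGTG. In the full windows of 300 bases, which run from 250 bases before to 50 after the start, Emcn also holds 1 GCGTG. Over the 6 full windows of members in the RefSeq table, GCGTG is in 3 and AGGAAG in 4. Of all 32851 windows, 32.4% hold GCGTG and 35.4% hold AGGAAG. The other hypoxia response core searched, ACGTG, is in none of the 6 windows of members and in 19.6% of all windows. The ETS core CCGGAA and the TATA box TATAAA are likewise in none of the 6 and in 14.9% and 13.6% of all. The SOX cores ACAAT and ACAAAG are in 2 and 1 of the 6 against 31.0% and 18.7% of all, and the RBPJ core TGGGAA is in 1 of the 6 against 25.6%. These matches describe letters only. The table held windows for 4 of the members, Egfl7 with 3 start sites, and Pecam1, Cdh5, Ecscr, Esam, Sox17 and Sox18 had none in it.

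All 10 members had a level of at least 1 FPKM (fragments scaled to transcript length and to the reads of the library) in at least 1 library, the condition for the 15883 genes called tested genes below. Each difference is that of log2(FPKM + 1), OIR minus control, a scale that understates changes at low FPKM. Each ratio is the share of reads in OIR over the share in the control, with an exact conditional 95% interval (Clopper-Pearson) that covers counting error only. All 10 differences were above 0, against 64.9% of tested genes, but that of Sox17 was 0.01 and changed sign with the scaling. By difference, 3 of the 10 members were at least 2-fold higher in OIR, namely Esm1, Ecscr and Sox18, against 3.07% of tested genes, and none was at least 2-fold lower, against 0.718%. By ratio, which has no pseudocount, 6 of 10 were at 2 or more, against 6.38% of tested genes. The interval lay above 1 for 9 of 10, against 36.7% of tested genes. The median difference of the members was 0.92 and that of all tested genes 0.11. The median ratio was 2.05 for the members and 1.09 for all tested genes. With the authors' scaling factors the number of members at least 2-fold higher was 1, against 2.47% of tested genes. With centring on the median gene it was also 1, against 2.35%, and with a pseudocount of 0.1 it was 6, against 5.82%.

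The 10 genes together took 4027 reads in the OIR library and 1620 in the control, or summed levels of 125 FPKM and 69.6 FPKM. The ratio of these summed shares was 1.92 (1.81 to 2.04). Without Esm1 the other 9 members gave 1.84 (1.74 to 1.95).

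**Figure D1:**
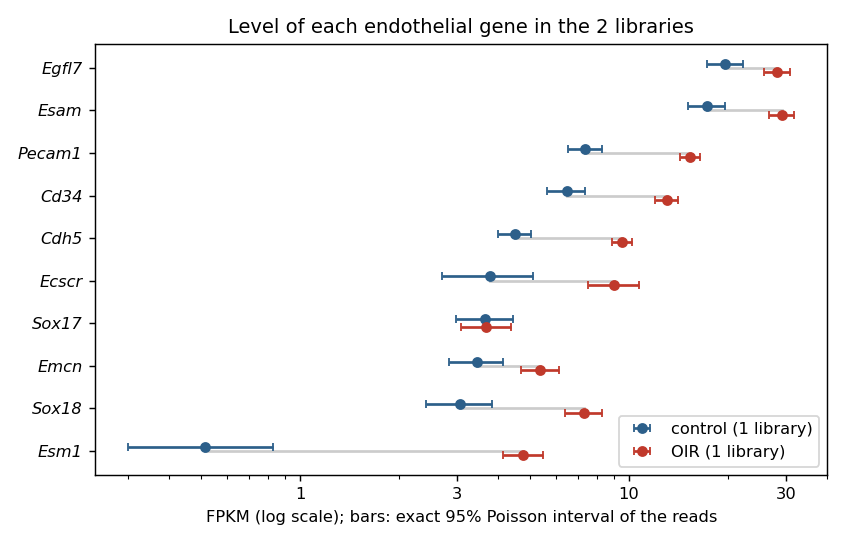
Level of each member in FPKM on a log axis, with 1 point per library (blue control, red OIR) and bars for the exact 95% Poisson interval of its reads. Esm1 moves from 0.515 to 4.77 FPKM, while the points of Sox17 lie on each other at 3.66 and 3.68.

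Among the junction and adhesion genes, the OIR library was higher for all 3 members. Pecam1 encodes PECAM-1 (CD31), an immunoglobulin-family adhesion protein at contacts between endothelial cells that leukocytes and platelets also carry (ENSMUSG00000020717, chromosome 11, 106654217 to 106750628, minus strand). It had 286 reads in the control and 772 in OIR, or 7.35 and 15.3 FPKM, a ratio of 2.09 (1.82 to 2.40) and a difference of 0.97. Cdh5 encodes VE-cadherin, the adherens junction cadherin of endothelium (ENSMUSG00000031871, chromosome 8, 104101625 to 104144502, plus strand). It had 282 and 773 reads, or 4.49 and 9.52 FPKM, a ratio of 2.12 (1.85 to 2.44) and a difference of 0.94. Pecam1 and Cdh5 thus had nearly the same reads and the same ratio, and the ratio of Pecam1 over that of Cdh5 was 0.985 (0.809 to 1.20). Esam, an endothelial adhesion molecule of tight junctions that platelets also carry (ENSMUSG00000001946, chromosome 9, 37528078 to 37538319, plus strand), had 234 and 512 reads. Its level was 17.2 FPKM in the control and 29.1 in OIR, with a ratio of 1.69 (1.45 to 1.98) and a difference of 0.72. Its ratio was 0.798 of that of Cdh5 (0.646 to 0.987), an interval that just left out 1, and 0.811 of that of Pecam1 (0.657 to 1.00), one that just held it.

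The sialomucins, surface proteins with dense sugar chains, were higher by unlike amounts. Cd34 marks endothelium as well as blood progenitors and some fibroblasts (ENSMUSG00000016494, chromosome 1, 194938819 to 194961279, plus strand). It had 223 reads in the control and 582 in OIR, or 6.46 and 13.0 FPKM, a ratio of 2.02 (1.72 to 2.36) and a difference of 0.91. Emcn encodes endomucin of capillary and venous endothelium (ENSMUSG00000054690, chromosome 3, 137341067 to 137432185, plus strand). It had 111 and 224 reads, or 3.44 and 5.37 FPKM, a ratio of 1.56 (1.24 to 1.98) and a difference of 0.52. Its ratio was 0.736 of that of Cdh5 (0.561 to 0.970). The exons of Cd34 share 148 bases, 2.03% of their total, with an antisense gene on the other strand, Gm16897, that had 5 reads in the control and 14 in OIR.

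Ecscr and Egfl7 encode proteins that act on endothelial movement and tube formation. Ecscr, a surface protein of endothelium linked to chemotaxis (ENSMUSG00000073599, chromosome 18, 35713086 to 35722356, minus strand), had 41 reads in the control and 127 in OIR, or 3.77 and 9.02 FPKM. Its ratio was 2.39 (1.67 to 3.49) and its difference 1.07, and its interval was the widest after that of Esm1. Its exons share 62 bases, 3.54% of their total, with 1700066B19Rik on the other strand, which had 8 reads in the control and 2 in OIR. Egfl7 is secreted by endothelial cells into the matrix around growing vessels (ENSMUSG00000026921, chromosome 2, 26580014 to 26593120, plus strand). It had 249 reads in the control and 464 in OIR, or 19.6 and 28.2 FPKM, a ratio of 1.44 (1.23 to 1.69) and a difference of 0.50. Its ratio was 0.680 of that of Cdh5 (0.551 to 0.840). Egfl7 hosts the endothelial miR-126, whose 3p arm, shown above, lies in the span of the gene and inside 1 of its GENCODE exon models. The table's row for the miRNA gene, Mir126a, had 0 reads in both libraries, and the labels name no small RNA library. Egfl7 also shares 64 exonic bases with Agpat2 on the other strand, which had 60 and 110 reads, and 264 bases with Gm20532 on its own strand, at 0 reads in both. The sources used here do not say whether reads were counted by strand, so reads of the shared parts are uncertain.

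The SOX transcription factors differed from each other. Sox18, a SoxF factor of developing vessels and lymphatics (ENSMUSG00000046470, chromosome 2, 181669836 to 181671640, minus strand), had 78 reads in the control and 240 in OIR, or 3.06 and 7.27 FPKM. Its ratio was 2.38 (1.83 to 3.11) and its difference 1.03. Sox17, the SoxF factor tied to arterial identity (ENSMUSG00000025902, chromosome 1, 4490931 to 4497354, minus strand), had 99 and 129 reads, or 3.66 and 3.68 FPKM. Its ratio was 1.01, with an interval that held 1 (0.769 to 1.32), and its difference was 0.01. The ratio of Sox18 over that of Sox17 was 2.36 (1.61 to 3.46). Sox7, the remaining SoxF gene and not a member, had 25 and 92 reads and a ratio of 2.84 (1.81 to 4.62), which was 2.82 times that of Sox17 (1.65 to 4.93). Exons of Sox17 share 804 bases, 16.8% of their total, with Gm37587 on the other strand, which had 0 reads in both libraries. The difference of Sox17 had no stable sign, running from -0.10 to 0.09 over the settings tried, and below 0 under the 4 scalings or centrings that lower the median gene.

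Esm1 encodes endocan, a secreted proteoglycan that tip cells release under VEGF-A (ENSMUSG00000042379, chromosome 13, 113209659 to 113218098, plus strand). It was the member with the fewest reads in the control, 17, and had 204 in OIR. Its level was 0.515 FPKM in the control (Poisson interval 0.300 to 0.825) and 4.77 in OIR (4.14 to 5.48). The ratio was 9.27 (5.65 to 16.2) and the difference 1.93, the 64th highest among the 15883 tested genes. With a pseudocount of 0.01 in place of 1 the difference was 3.19. The 17 control reads set the width of this interval. Its ratio was 4.37 times that of Cdh5 (2.61 to 7.80) and 5.03 times that of the other 9 members summed (3.05 to 8.84). No exonic base of Esm1 was shared with another gene of GENCODE M21.

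**Figure D2:**
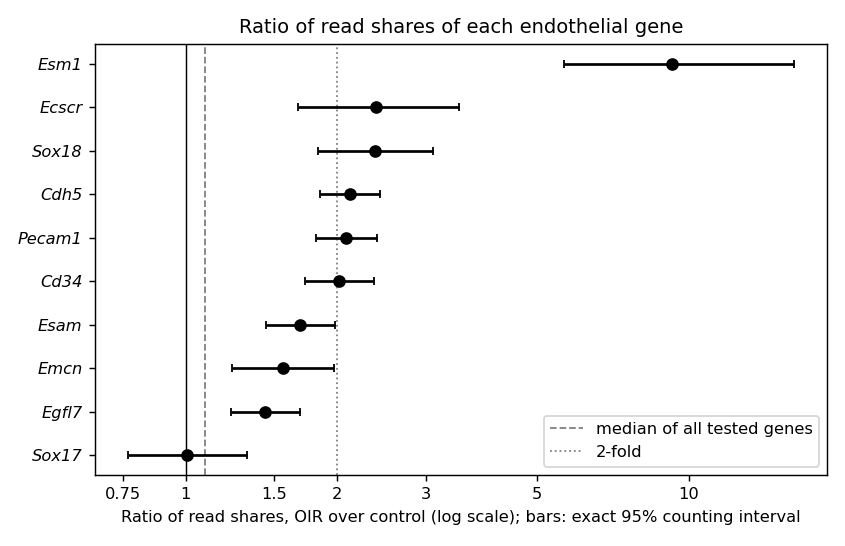
Ratio of read shares, OIR over control, for each member on a log axis, with bars for the exact 95% counting interval, a dashed line at the median of all tested genes (1.09) and a dotted line at 2. Esm1 stands alone at 9.27, 8 members lie from 1.44 to 2.39, and the interval of Sox17 holds 1.

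Between Sox17 and Esm1, the other 8 members had ratios from 1.44 to 2.39. The ratios of Ecscr, Sox18, Cdh5, Pecam1 and Cd34 lay from 2.02 to 2.39, those of Esam, Emcn and Egfl7 from 1.44 to 1.69. Over the 45 pairs of members, the counting interval of the ratio of ratios left out 1 for 27. Esm1 and Sox17 differed in this sense from all 9 others. In the 28 pairs without these genes, the interval left out 1 for 10. Ecscr, whose reads were few, differed from 3 of the 9 others, Cd34 from 3, and Egfl7 from 7. These intervals were not adjusted for the number of pairs. By difference, 9 of the 10 members lay above the median of all tested genes, from Egfl7, above 88.0% of them, to Esm1, above 99.6%. Sox17 lay above 36.0%.

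**Figure D3:**
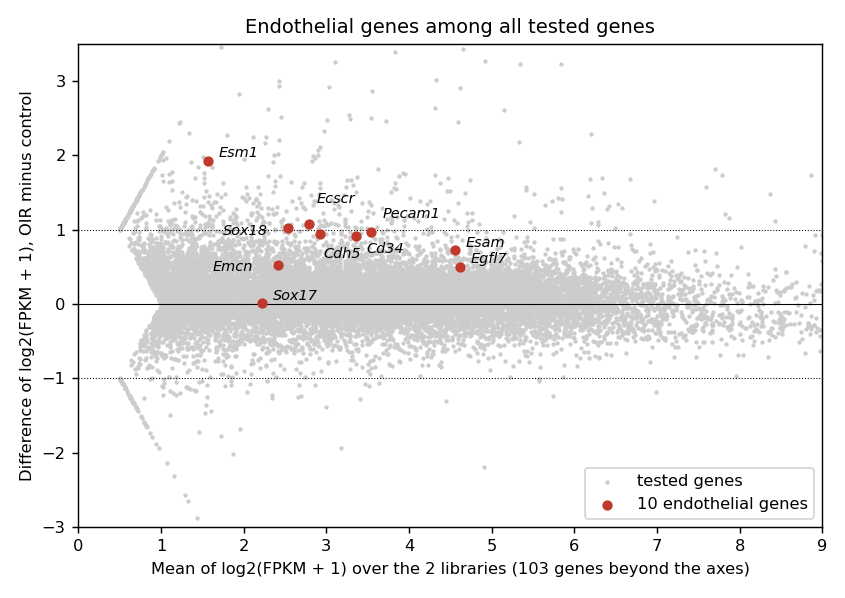
Difference of log2(FPKM + 1), OIR minus control, against the mean level of each tested gene (grey, 1 point per gene), with the 10 members in red, dotted lines at 1 and -1, and 103 genes outside the axes. Esm1 is high at a low level, at 1.93, and Sox17 sits at 0.01.

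The order of levels changed at its lower end. In the control, Egfl7 at 19.6 FPKM and Esam at 17.2 led, and their Poisson intervals overlapped. Pecam1 at 7.35 and Cd34 at 6.46 came next and overlapped each other. Cdh5, Ecscr, Sox17, Emcn and Sox18 followed, from 4.49 down to 3.06, each overlapping its neighbour, and Esm1 stood apart at the bottom. In OIR the first 6 places held the same genes, with Esam at 29.1 and Egfl7 at 28.2 overlapping. Sox18 was then seventh, Emcn eighth, Esm1 ninth and Sox17 last at 3.68, and Emcn, Esm1 and Sox17 each overlapped its neighbour. Of the summed FPKM of the 10 genes, Esm1 made up 0.740% in the control and 3.81% in OIR, Sox17 5.25% and 2.94%, and Egfl7 28.2% and 22.5%. FPKM depends on the transcript length the authors used. Count and FPKM imply a length that matched the gene length in the table, to within 1 base, for only Cdh5, Sox18 and Esm1 among the 10. With the deposited length Sox18 was sixth in both libraries, and Egfl7 and Esam stayed the first 2, with 8.48 and 7.97 on the same scale in the control.

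Other genes of endothelial identity had a smaller median difference than these 10. Of 22 listed, 21 were tested, and 20 had a difference above 0, against 64.9% of all tested genes. For 2 of the 21 it reached 2-fold, against 3.07% of tested genes. The median difference was 0.40. The ratio was at 2 or more for 7 of the 21, against 6.38% of tested genes. Vwf, the clotting factor stored in endothelial granules, had 298 reads in the control and 1305 in OIR, a ratio of 3.38 (2.98 to 3.85). Cd93, a surface glycoprotein of angiogenic endothelium, had 370 and 1472 reads and a ratio of 3.07 (2.74 to 3.45). These ratios were 1.60 (1.32 to 1.93) and 1.45 (1.21 to 1.74) times that of Cdh5. Eng, a co-receptor for TGF-beta family ligands, had 440 and 1153 reads, and its ratio was 0.956 of that of Cdh5 (0.799 to 1.14). Tek, the Tie2 receptor, stood at 3.75 FPKM in the control and 3.89 in OIR, a ratio of 1.03 (0.860 to 1.25). S1pr1, a receptor that steadies junctions and is also found outside endothelium, stood at 8.38 and 6.32 FPKM, a ratio of 0.753 (0.654 to 0.868). Their ratios were 0.489 (0.387 to 0.618) and 0.356 (0.291 to 0.434) of that of Cdh5.

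Other genes listed as tip cell genes had a larger median difference. Whether their reads came from endothelium in these eyeballs was not tested. Of 19 listed, 18 were tested, with a median of 1.05. At least 2-fold higher were 9, against 3.07% of tested genes, and none was at least 2-fold lower, against 0.718%. Adm, which encodes adrenomedullin, had 15 reads in the control and 305 in OIR, and the ratio of Esm1 over that of Adm was 0.591 (0.268 to 1.29). Apln, the apelin gene, had 98 and 1377 reads, and the ratio of Esm1 over its ratio was 0.854 (0.495 to 1.56). The counting intervals thus did not separate Esm1 from Adm or Apln. Against Angpt2, which loosens vessels through Tie2, with 92 and 460 reads, the ratio of Esm1 was 2.40 times as large (1.38 to 4.41). Nid1 and Cotl1, a basement membrane protein and an actin-binding protein, were lower in OIR, with ratios of 0.773 (0.742 to 0.804) and 0.861 (0.821 to 0.902). Vegfa, the ligand upstream of Esm1, stood at 111 FPKM in the control and 331 in OIR, and the ratio of Esm1 was 3.10 times that of Vegfa (1.89 to 5.44).

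Endothelial transcription factors were tested for 13 of 18 genes, with a median of 0.68. All 13 lay above 0, against 64.9% of all tested genes. By difference 2 were at least 2-fold higher, against 3.07% of tested genes. That count was 5 with a pseudocount of 0.1, against 5.82%, and 1 with the authors' scaling factors, against 2.47%. By ratio 5 were at 2 or more, against 6.38%. The 2 were Klf4, a factor also made by corneal epithelium, with a ratio of 2.36 (2.03 to 2.74), and Bcl6b, at 2.87 (1.96 to 4.30) from 35 and 130 reads. Elk3, an ETS factor, had a ratio of 2.15 (1.80 to 2.57), which was 1.02 times that of Cdh5 (0.810 to 1.27). Mef2c had a ratio of 1.18 (1.01 to 1.36), and Klf2, a factor induced by blood flow, one of 1.08 with an interval that held 1 (0.839 to 1.38). Etv2, which starts endothelial fate in the embryo, had 0 reads in both libraries.

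**Figure D4:**
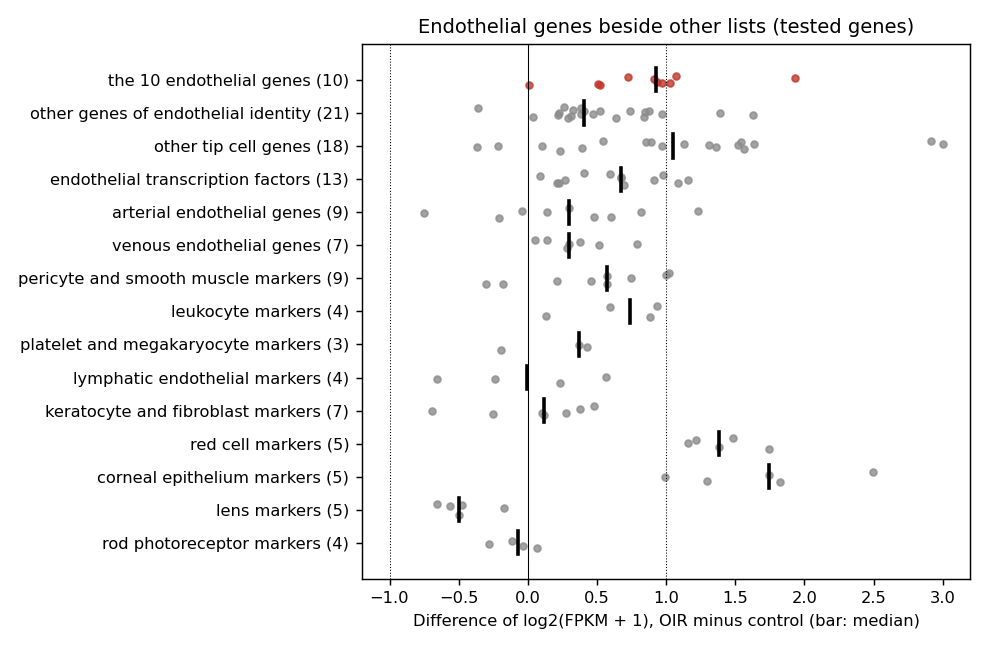
Difference of log2(FPKM + 1), OIR minus control, for the tested genes of each list (1 point per gene, number tested in brackets, black bar at the median). The 10 members have a median of 0.92, beside 0.40 for other endothelial genes, 1.05 for other tip cell genes, 1.39 for red cell markers and 1.74 for corneal epithelium markers.

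Cell types that share some of these genes, or that lie beside vessels, were measured in the same libraries. At least 2-fold higher were 4 of 5 corneal epithelium markers and 5 of 5 tested red cell markers, against 3.07% of tested genes. The remaining corneal marker, Krt14, had a difference of 0.99. The summed level of the corneal markers was 310.4 FPKM in the control and 1001 in OIR. That of the 8 red cell markers was 593 and 1642. The 4 tested leukocyte markers lay above 0, against 64.9% of tested genes. By difference none was at least 2-fold higher, against 3.07%. By ratio, which has no pseudocount, 3 of 4 were at 2 or more, against 6.38% of tested genes. The ratio of the list's summed reads was 2.18 (1.86 to 2.56), beside 1.92 for the 10 members. All 9 leukocyte markers summed to 8.12 and 16.3 FPKM, with Ly6g at 0 in both libraries and Cd3e at 0 in the control. Itgam, Cd68 and Cx3cr1 of macrophages and microglia had ratios of 2.24 (1.48 to 3.49), 2.18 (1.57 to 3.06) and 2.37 (1.85 to 3.06). Aif1, another marker of these cells, had 18 reads in the control and 27 in OIR and a ratio of 1.16 (0.615 to 2.23). Of the 3 tested platelet markers 2 lay above 0, Itga2b and Pf4, a share close to the 64.9% of all tested genes. Itga2b had a ratio of 1.38 (0.979 to 1.98). Pf4 had 16 reads in the control and 31 in OIR (interval 0.794 to 2.93). Gp1bb had a ratio of 0.860 (0.690 to 1.07), and all 3 intervals held 1. The 6 platelet markers summed to 13.7 and 15.0 FPKM. The ratio of their summed reads was 1.04 (0.873 to 1.23), with 159 of the 233 control reads from Gp1bb. Of the 9 pericyte and smooth muscle markers, 7 lay above 0, against 64.9% of tested genes. Only Cspg4 was at least 2-fold higher by difference, against 3.07%. Cspg4 and Notch3 reached 2 by ratio, at 3.28 and 2.32, against 6.38% of tested genes. The contractile genes Acta2 and Myh11 were lower in OIR, at 0.811 and 0.874, both with intervals below 1. The list's summed level, 195 FPKM in the control and 233 in OIR, thus joins genes that went both ways. Keratocyte and fibroblast markers, the cells that can also carry Cd34, summed to 239 and 282 FPKM. Of these, 5 of 7 lay above 0, against 64.9% of tested genes, and none was at least 2-fold higher, against 3.07%. The collagen genes Col1a1, Col1a2 and Col3a1 had ratios of 1.30, 1.22 and 1.41, with intervals above 1. Dcn and Lum were lower in OIR, at 0.606 and 0.812, with intervals below 1. The intervals of Kera and Pdgfra held 1. The 4 tested lymphatic endothelial markers went both ways. Pdpn had a ratio of 1.49 (1.38 to 1.60) and Flt4 1.28 (1.02 to 1.62), while Prox1 had 0.845 (0.806 to 0.885) and Lyve1 0.561 (0.452 to 0.695). Ccl21a, not tested, had 0 reads in the control and 3 in OIR. The list of 5 summed to 108 and 127 FPKM, most of it from Pdpn and Prox1, which other eye cells also make, and the ratio of its summed reads was 0.997 (0.960 to 1.04). The part of these cell types in the levels of the 10 genes was not tested.

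Markers of the main tissues of the eye were present in both libraries. Cryaa of the lens stood at 49529 FPKM in the control and 35594 in OIR, Gnat1 of rods at 3810 and 3724, and Krt12 of the corneal epithelium at 59.9 and 148. Reads counted in genes numbered 15741235 for the control and 20378793 for OIR. A floor of 3 reads at the median transcript length equals 0.105 FPKM in the control and 0.0814 in OIR, and every member lay above this in both. In the authors' deposited table, none of the 10 genes was marked significant. Its log2 fold changes ran from -0.13 for Sox17 to 3.07 for Esm1, and its adjusted p was 0.180 for Esm1, 0.248 for Cdh5 and 0.272 for Pecam1. Those values compare 1 library with 1 library.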

How the data were processed

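RNA from mouse eyeballs was sequenced for 1 control and 1 OIR library. The submitters' processing notes name TopHat2 2.0.12, Bowtie2 2.2.3, HTSeq 0.6.1 and build mm10. The settings, annotation and strand use were not given in the sources used here. Per the file headers, the authors' deposited table holds read counts, FPKM values, a scaled signal (counts divided by 1 factor per library), and the p-values and log2 fold changes of their own comparison. After 5 broken lines were dropped, 47644 genes remained. Counts and FPKM implied 1 transcript length, within 0.1%, for each of the 22320 genes read in both libraries.

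Differences of log2(FPKM + 1), OIR minus control, were computed for genes at 1 FPKM or more in a library. A gene was called at least 2-fold higher or lower at a difference of 1 or -1. Ratios of read shares and ratios of such ratios (conditional odds ratios) carry exact 95% intervals from SciPy 1.17.1. All intervals cover counting error only, because each group is 1 library. PCR copies cannot be told from separate molecules, so the intervals may be too narrow even for that error. The scripts were tested on simulated counts. Besides the members, the 3 highest and 2 lowest tested genes of each of 16 lists were eligible for naming. Podxl, Ly6g, Cd3e, Ccl21a, Etv2 and genes that overlap members were named outside this rule, after their values were seen. The members and lists were chosen with earlier results of these data known. Exons and gene symbols are from GENCODE M21 on the same build. Some genes of these lists are not reported here.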

Additional observations from a re-analysis of the deposited data

How the results depend on the processing

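The count of members at least 2-fold higher in OIR, 3 as reported, depended on the settings. It was 6 with pseudocounts of 0.1 and 0.01 and with TPM. It was 1 with centring on the median of tested genes and with the authors' scaling factors. With totals without crystallin, ribosomal RNA, haemoglobin and mitochondrial genes it was 2. At a threshold of 1.5-fold it was 7 and at 4-fold 0, and the shares of tested genes at these thresholds are not reported here. The share of tested genes at least 2-fold higher, 3.07%, was 5.82% and 6.28% with pseudocounts of 0.1 and 0.01. With TPM it was 4.04%, with centring 2.35% and with the authors' scaling factors 2.47%. With the totals that left out those genes it was 2.97%, and with no filter 1.02%. The median difference of the members ran from 0.76 (centring in 20 bins of transcript length, an alternative chosen after the data were seen) to 1.04 (TPM). The median of tested genes was 0.11, 0.20 with TPM and -0.01 with the authors' factors, which shift log2 ratios by -0.14. Crystallin, ribosomal RNA, haemoglobin and mitochondrial genes took 25.8% of the control reads and 19.7% of the OIR reads. With totals without these genes, the median difference was 0.85 for the members and 0.01 for tested genes. In the setting as reported and the 7 other scalings, centrings and pseudocounts, 9 of 10 members lay above that median. The difference of Esm1 ran from 1.81 to 3.19. Of calls in either direction, 81.0% were higher in OIR, and 72.2% after centring on the median. A fit with a replicate block was not run: No paired analysis was possible because each group has 1 library and the labels share no replicate numbers. For the same reason no library could be left out. The precision is limited by reads in the control, 17 for Esm1 and 41 for Ecscr.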

Other observations

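Genes listed as arterial or venous endothelial had smaller median differences than the 10 members. Whether their reads came from endothelium in these eyeballs was not tested. Of 11 arterial genes 9 were tested, with a median of 0.30. Of these, 6 lay above 0, a share close to the 64.9% of all tested genes. At least 2-fold higher was 1, against 3.07%. That gene was Notch1, a receptor that many retinal cells also make, with 382 reads in the control and 1200 in OIR and a ratio of 2.43 (2.16 to 2.73). Notch4, a Notch receptor of endothelium, had a ratio of 1.90 (1.55 to 2.33), and Gja4, the connexin 37 gene, one of 1.68 (1.29 to 2.21). Hey1, a Notch target of arteries, had 0.855 (0.734 to 0.996), and Gkn3 0.273 (0.0880 to 0.725) from 17 and 6 reads. Beside these stands the arterial factor Sox17, at 1.01. All 7 tested venous genes of 8 lay above 0, against 64.9% of tested genes, and none was at least 2-fold higher, against 3.07%. Their median was 0.30. Aplnr, the apelin receptor, had 110 and 276 reads and a ratio of 1.94 (1.55 to 2.44), Slc38a5 had 1.72 (1.14 to 2.62) and Ephb4 1.38 (1.17 to 1.63). Nr2f2, the factor of venous fate, had 1.11 (0.984 to 1.26) and Ackr1 1.04 (0.932 to 1.15), with intervals that held 1. Ackr1 stood at 47.8 FPKM in the control and 49.5 in OIR, most of the venous list's summed 74.4 and 85.3 FPKM.

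Sequence relatives of the members spread on both sides of 0. Of 10 genes 8 lay above 0, against 64.9% of tested genes. By difference only Igsf11, a relative of Esam, was at least 2-fold higher, against 3.07%. By ratio 3 were at 2 or more, namely Sox7, Igsf11 and F11r, against 6.38% of tested genes. Igsf11 had 671 reads in the control, 1926 in OIR and a ratio of 2.22 (2.03 to 2.42). F11r, the junction molecule JAM-A of epithelium and endothelium, had a ratio of 2.02 (1.73 to 2.37), beside the corneal epithelium markers described above. Jam3 had 0.951 (0.858 to 1.05), and Podxl2, a relative of Cd34, 0.827 (0.777 to 0.880). The ratio of Cd34 was 1.29 times that of its closer relative Podxl (1.09 to 1.52).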
